A study of Rattus norvegicus with 6 samples.

Results

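In rat tenocytes, the widest peaks of lactylated histones were described for 3 marks: H3K9la, H4K8la and H4K16la. A wide peak is a peak of 1500 bp or more on chromosomes 1 to 20, so the members were chosen by the width that the authors' peak caller gave them. Of 308787 peaks on these chromosomes, 2426 were wide. Wide peaks of different lists that overlapped by at least 1 bp were merged, which gave 2040 wide regions out of 171752 merged regions of all peaks. Because width chose the members, widths and the numbers of wide peaks are given as descriptions with no test.

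Tenocytes are the resident fibroblast-like cells of tendon, and the labels describe these as wild type (WT) cells grown in 1640 medium. CUT&Tag was applied, in which an antibody tethers a transposase to chromatin that carries the mark and the freed fragments are sequenced. Each mark had 1 library from cells with no treatment (control) and 1 from cells given 20 mM lactate. The 6 libraries are thus 6 groups of 1, the labels do not say how many animals or cultures lie behind them, and nothing compared between libraries could be checked in a replicate. Gene expression was not measured, so tenocyte markers could not be examined.

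Lactylation attaches a lactyl group, made from lactate, to lysine side chains of histones and other proteins. H3K9la lies on the tail of histone H3, and H4K8la and H4K16la lie on the tail of histone H4, at lysines that can also be acetylated. For other marks of active chromatin, broad domains around gene starts are well described, which gives peak width an interest of its own. No gene names are attached to the regions below, since the annotation at hand describes assembly GRCr8 and the peaks are on build rn7. For the same reason no sequence is printed.

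Width depends on how the caller joins signal. In every list the smallest gap between neighbouring peaks was 1 bp larger than its narrowest peak, from 285 bp against 284 bp in H4K8la control to 302 bp against 301 bp in H4K8la lactate. Stretches of signal closer than this were therefore listed as 1 peak. A wide peak may be 1 continuous stretch or several stretches separated by short dips, and the lists do not tell which. As a stand-in for depth served each library's background coverage, meaning the fragments expected over a position of the genome, worked out from the fold and p columns. It ranged from 1.32 in H4K8la control to 2.84 in H4K16la lactate.

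Wide peaks were most numerous in H4K8la control. That list held 1344 of them, 55.4% of all wide peaks, although its background coverage was the lowest of the 6. As a share of the list this was 2.24% of 59940 peaks (Wilson 95% interval 2.13 to 2.36). H3K9la control followed with 577 wide peaks, 0.948% of its list (0.874 to 1.03). H4K8la lactate had 215, or 0.518% (0.453 to 0.592). The other lists were close to each other, with 77 wide peaks in H3K9la lactate (0.168%, 0.135 to 0.210), 84 in H4K16la control (0.212%, 0.171 to 0.262) and 129 in H4K16la lactate (0.211%, 0.178 to 0.251). All intervals cover counting error only.

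**Figure D1:**
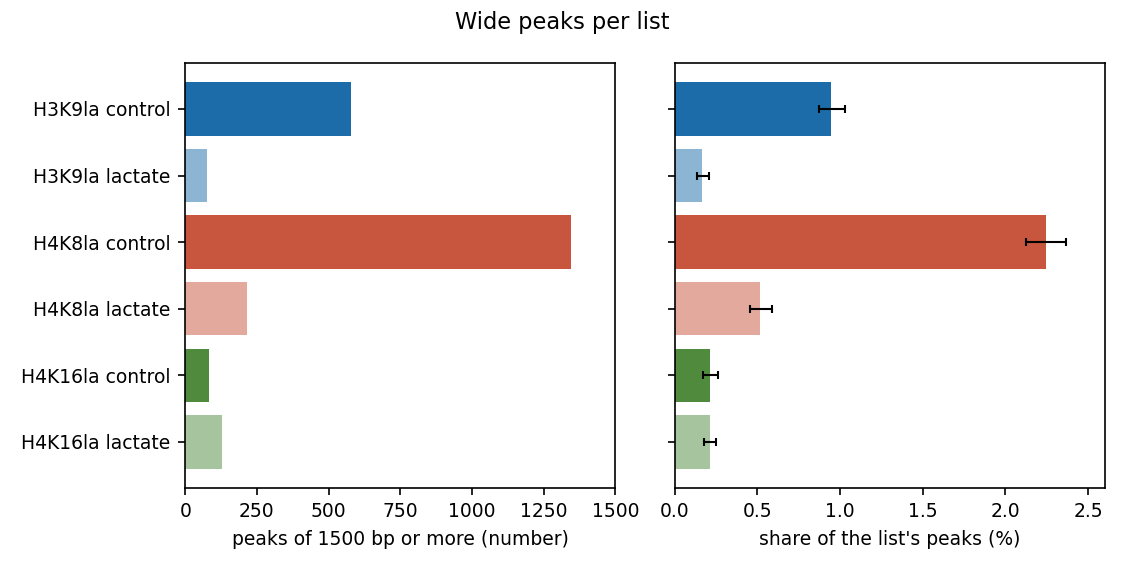
Wide peaks per list, as their number (left) and as a share of all peaks of the list on chromosomes 1 to 20 (right, in percent). Dark bars are control and pale bars lactate libraries, and the black lines in the right panel are Wilson 95% intervals for counting error; H4K8la control stands above the rest with 1344 peaks and 2.24%.

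For H3K9la and H4K8la the wide peaks were fewer with lactate, and by far more than the lists as a whole were shorter. H3K9la had 7.49 times as many in control, a log2 ratio of lactate over control of −2.91 (95% counting interval −3.25 to −2.56), where the log2 ratio of all its peaks was −0.41. H4K8la had 6.25 times as many in control, a log2 ratio of −2.64 (−2.85 to −2.44) against −0.53 for all peaks. H4K16la ran the other way, with 1.54 times as many wide peaks in the lactate library and a log2 ratio of 0.62 (0.22 to 1.01). Its whole list was longer by the same factor, at 0.62, so the share of wide peaks was 0.212% in control and 0.211% with lactate. Depth ran against the H4K8la difference, since the lactate library had 1.18 times the background coverage of control. It ran with the other marks, at 0.868 times control for H3K9la and 1.86 times control for H4K16la. The part of depth in these numbers was not tested.

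**Figure D2:**
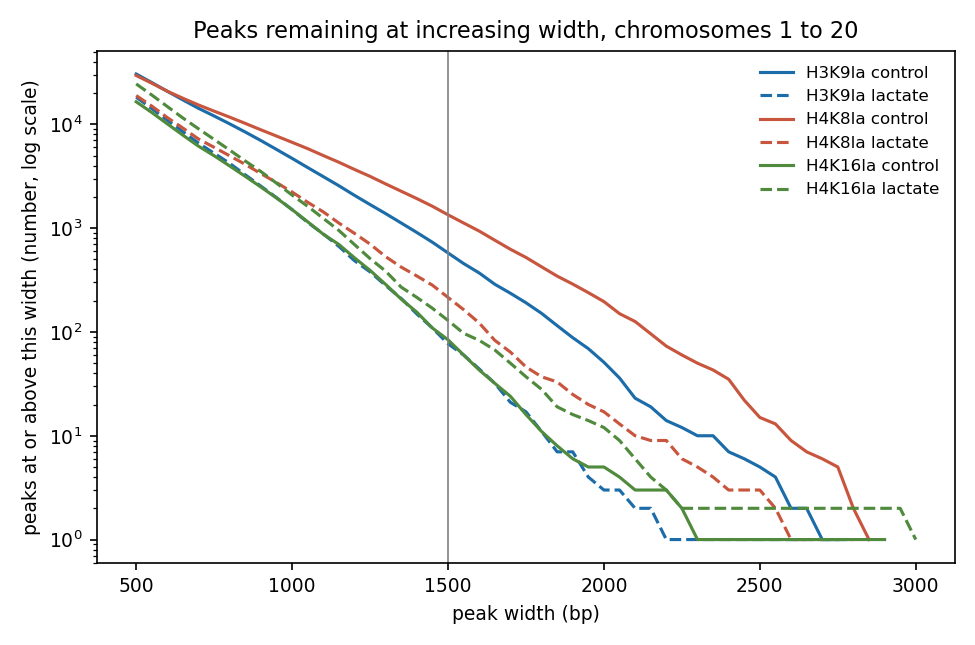
Number of peaks at or above each width (log scale, vertical axis) against width in bp, for the 6 lists; solid lines are control and dashed lines lactate, and the grey line marks 1500 bp. H4K8la control and H3K9la control already stand apart at 1000 bp, with 6710 and 4699 peaks against 1507 to 2227, and keep 196 and 51 peaks at 2000 bp, where the other lists keep 3 to 17.

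The tail beyond 1500 bp was short. The median width of wide peaks lay between 1603.5 bp in H4K16la control and 1682.5 bp in H4K8la control. At 2000 bp or more, H4K8la control kept 196 peaks, H3K9la control 51, H4K8la lactate 17, H4K16la lactate 12, H4K16la control 5 and H3K9la lactate 3. The widest peak of all, 3054 bp, belonged to H4K16la lactate. Wide peaks made up 6.59% of all bases under peaks in H4K8la control and 2.82% in H3K9la control, but 0.556% to 1.61% in the other lists. The threshold cuts a smooth distribution: in H4K8la control, 582 peaks were 1400 to 1499 bp wide with a median fold of 4.63, and 407 were 1500 to 1599 bp wide with a median fold of 4.51. In H3K9la lactate the same bins held 72 and 33 peaks with median folds of 4.12 and 4.15.

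In all 6 lists wide peaks had a higher median fold and a taller median summit than the other peaks of the list, and they lay in a higher local background. The caller's fold, the deposited ratio of summit pileup to local background, had a median of 4.39 at wide peaks of H4K8la control and 3.88 at its other peaks. In H3K9la control it was 3.69 and 3.46, and in H4K16la control 4.76 and 3.90. Over the genome-wide background of the library, the summit pileup had a median of 22.8 times at wide peaks of H4K8la control and 9.87 times at its other peaks. For H3K9la control these were 15.2 and 8.31 times, and for H4K16la lactate 9.15 and 5.98 times. The local background itself was also higher there, with a median at wide peaks of 4.40 times the genome-wide value in H4K8la control (1.84 at other peaks), 3.76 times in H3K9la control (1.99) and 1.94 times in H4K16la lactate (1.50). In H4K8la control the median fold rose from 3.62 under 500 bp to 4.61 from 1000 to 1499 bp. It was lower above that, at 4.45 from 1500 to below 2000 bp and 4.07 at 2000 bp or more. H3K9la control had the same shape, with 3.26 under 500 bp and then 3.88, 3.71 and 3.34 in the 3 upper classes. In H4K16la lactate the median fold was higher in each wider class, at 4.00, 4.21 and 4.66 in the 3 upper ones. Width and height come from the same call, so these values are descriptions.

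The other condition of the same mark usually called the place too, but as a narrower peak. Of the 577 wide peaks of H3K9la control, 470 (81.5%, 78.1 to 84.4) overlapped a lactate peak, against 34.5% of all peaks of that list. Only 22 of these met a wide lactate peak, 50 met several narrow peaks and 398 met 1 narrow peak, while 107 met none. Where there was a lactate peak, the median width of the widest one was 744.5 bp, and lactate peaks covered a median of 43.2% of the wide peak's bases. H4K8la control gave much the same picture. There 1138 of 1344 wide peaks (84.7%, 82.6 to 86.5) overlapped a lactate peak, against 29.9% of all its peaks, with 86 wide, 100 several narrow, 952 with 1 narrow peak and 206 with none. Members come from the wide end of their list, which by itself favours a narrower partner in any other list. For H3K9la control members, 1 narrow peak was also the most frequent answer in H4K8la control (59.4%) and H4K16la control (66.7%).

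**Figure D3:**
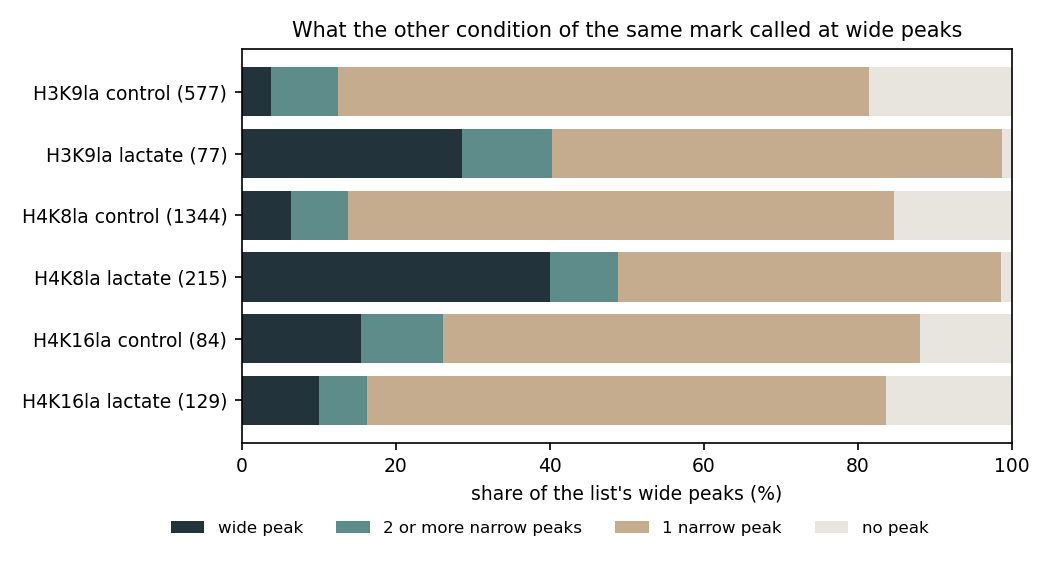
For the wide peaks of each list (number in brackets), the share in percent at which the other condition of the same mark called a wide peak, 2 or more narrow peaks, 1 narrow peak or no peak. A single narrow peak is the most frequent answer in all 6 lists, from 49.8% in H4K8la lactate to 70.8% in H4K8la control.

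Seen from the lactate side, almost nothing was missing in control for these marks. Of 77 wide H3K9la lactate peaks, 76 (98.7%, 93.0 to 99.8) overlapped a control peak, against 46.2% of all peaks of that list, and of 215 wide H4K8la lactate peaks 212 did (98.6%, 96.0 to 99.5), against 43.2%. The overlap of the wide lists themselves depends on which list it is a share of. The 22 peaks wide in both conditions for H3K9la were 3.81% of the control members and 28.6% of the lactate members, and the 86 for H4K8la were 6.40% and 40.0%. H4K16la was more balanced: 74 of 84 wide control peaks (88.1%, 79.5 to 93.4; 42.8% of all its peaks) and 108 of 129 wide lactate peaks (83.7%, 76.4 to 89.1; 27.9% of all its peaks) overlapped a peak of the other condition. For H4K16la 13 peaks were wide in both, 15.5% of the control and 10.1% of the lactate members.

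The share of peaks that overlapped a peak of the other condition was higher in each wider class, also below the threshold, in every list but H4K16la control. There it was 88.6% from 1500 to below 2000 bp and 80% at 2000 bp or more, the latter 4 of 5 peaks. In H4K8la control the share with a lactate peak rose from 13.9% under 500 bp to 37.3% from 500 to below 1000 bp, 74.7% from there to 1499 bp, 84.5% from 1500 to below 2000 bp and 85.7% at 2000 bp or more. In H4K16la lactate the corresponding shares were 18.3%, 39.9%, 66.6%, 82.9% and 91.7%, the last of 12 peaks. A wider interval has more room to meet a peak, and no allowance was made for that.

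Summit positions were compared where both conditions of a mark had a peak. Where H3K9la lactate had a peak at a wide control peak, the control summit lay inside the strongest such peak in 314 of 470 cases (66.8%), and the distance between the summits had a median of 266.5 bp. For H4K8la control the figures were 818 of 1138 (71.9%) and 262 bp, and for H4K16la control 63 of 74 (85.1%) and 158.5 bp. Summits within 100 bp of each other were found at 28.1%, 24.1% and 37.8% of these pairs. In most pairs the summits were thus more than 100 bp apart. A wide interval leaves more room for summits to differ, and these shares were not worked out for other peaks of the lists. They are therefore a description and not a trait particular to wide peaks.

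Nearly all wide peaks overlapped a peak of another mark, and fewer overlapped a wide one. A peak of another mark overlapped 98.4% of the wide peaks of H3K9la control (61.6% of all its peaks), 100% of H3K9la lactate (61.4%), 98.0% of H4K8la control (58.8%), 99.1% of H4K8la lactate (58.9%), 97.6% of H4K16la control (62.4%) and 94.6% of H4K16la lactate (55.3%). A wide peak of another mark was met by 29.6% of H3K9la control members and 15.1% of H4K8la control members. The share was 45.5% in H3K9la lactate, 27.9% in H4K8la lactate, 51.2% in H4K16la control and 42.6% in H4K16la lactate. These shares depend on how many wide peaks the other marks had. They were not worked out for all peaks of a list, so their differences between lists are a description. H3K9la control and H4K8la control shared the most, 147 wide peaks of each, which were 25.5% of the former and 10.9% of the latter.

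Regions chosen by the other marks offer a view of each mark at places picked without its own lists, although some are its own members too. At the regions from control lists, H3K9la control was itself wide at 11.2%, against 0.778% of all regions of those lists. For H4K8la control this was 26.4% against 1.85%, and for H4K16la control 2.20% against 0.0961%. Those members were not left out. At 1398 regions wide in the control list of H4K8la or H4K16la, H3K9la peaks covered a median of 871 bp per region in control and 542 bp with lactate. H3K9la covered more bases in control at 988 of them (70.7%) and more with lactate at 332 (23.7%). Over all regions of those control lists, whatever their width, the shares were 29.5% and 13.8%, because H3K9la had no peak in either condition at most of them. Among regions where the conditions differed, control led at 74.8% of the wide regions and 68.2% of all regions, so control also led at regions of any width. At the 319 regions wide in a lactate list of the other marks, H3K9la covered more in control at 209 (65.5%, against 26.2% over all regions of those lists) and more with lactate at 95 (29.8%, against 13.7%). Where the conditions differed, control led at 68.8% of these and at 65.6% of all regions.

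For H4K8la, 645 regions were wide in a control list of another mark. It covered a median of 1100 bp there in control and 669 bp with lactate, with more in control at 490 (76.0%, against 29.3% over all such regions) and more with lactate at 129 (20.0%, against 12.3%). Where the conditions differed, control led at 79.2% of the wide regions and 70.5% of all. At 196 regions wide in a lactate list of another mark it covered more in control at 124 (63.3%, against 24.8%) and more with lactate at 58 (29.6%, against 11.7%). Control led at 68.1% of those that differed, next to 67.9% of all regions, a share at the background.

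For H4K16la the conditions were closer to even at the wide regions. At 1774 regions wide in a control list of another mark it covered a median of 557 bp in control and 534.5 bp with lactate, with 798 (45.0%, against 15.1%) higher in control and 759 (42.8%, against 23.0%) higher with lactate. Control led at 51.3% of those that differed and at 39.6% of all regions, so against the regions of any width the share moved toward control for this mark as well. At 279 regions wide in a lactate list the counts were 122 (43.7%, against 15.9%) and 144 (51.6%, against 24.8%), and control led at 45.9% of those that differed, against 39.1% of all. Each value compares 1 library with 1 library, so treatment and library cannot be told apart.

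**Figure D4:**
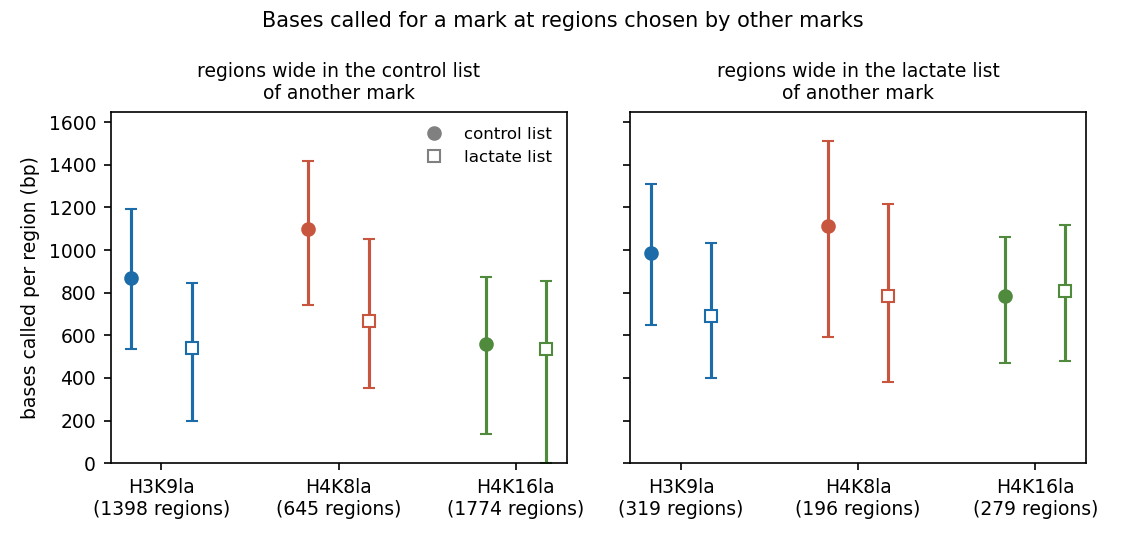
Bases called per region (bp) for each mark in its control list (filled circles) and lactate list (open squares), at regions wide in the control list (left) or lactate list (right) of another mark; points are medians over regions and lines run from the lower to the upper quartile. H3K9la and H4K8la medians are lower with lactate in both panels, while those of H4K16la are 557 and 534.5 bp on the left and 786 and 809 bp on the right.

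The 2040 wide regions were mostly wide in 1 list. There were 1745 of these (85.5%), 233 regions wide in 2 lists, 42 in 3, 13 in 4, 5 in 5 and 2 in all 6. H4K8la control was the only wide list at 1091 regions and H3K9la control at 400. H3K9la control and H4K8la control were the only wide lists at 106. By condition, 1659 regions (81.3%) were wide in control lists only, 221 (10.8%) in lactate lists only and 160 in both. H4K8la control and H3K9la control supplied 55.4% and 23.8% of all wide peaks, so this split largely restates the make-up of the members. By mark, 1802 were wide for 1 mark, 211 for 2 and 27 for all 3. As places they were widely called, with a peak of any width in all 6 lists at 991 regions (48.6%), against 4.19% of all merged regions, and in 1 list only at 24 (1.18%), against 66.2%.

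The number of regions without a peak differed among the lists. No peak of any width was found at 63 of the 2040 regions (3.09%) in H4K8la control and at 165 (8.09%) in H3K9la control, but at 360 in H4K8la lactate, 456 in H3K9la lactate, 479 in H4K16la control and 490 in H4K16la lactate. H3K9la was called in control only at 17.9% of the wide regions (22.6% of all merged regions) and in lactate only at 3.68% (13.9%). H4K8la was called in control only at 15.9% (23.9% of all) and in lactate only at 1.32% (13.4%). For H4K16la the shares were 13.1% in control only (12.8% of all) and 12.5% in lactate only (25.2%). The H4K8la and H3K9la control lists supplied most of the members, which by itself keeps the lactate-only share of these marks low. It also keeps their own numbers of regions without a peak low. H4K8la control was wide at 1344 regions and H3K9la control at 577, and neither could lack a peak at those.

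Summit height was compared where a mark was called in both conditions. Over the library's own genome-wide background, the H3K9la summit was higher with lactate at 336 of 1509 wide regions (22.3%, against 32.6% of all merged regions called in both), with a median log2 difference of −0.34. For H4K8la it was higher at 76 of 1653 (4.60%, against 14.1%; median −0.76) and for H4K16la at 74 of 1294 (5.72%, against 11.1%; median −0.71). Dividing by this background scales the heights by the stand-in for depth, and any further part of depth in them was not tested. The shallower library was lactate for H3K9la and control for H4K8la and H4K16la. Members were mostly chosen by width in the control lists of H4K8la and H3K9la, and width and height come from the same call. For these marks the choice by itself favours a taller control summit, so the shares are a description.

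The regions wide in nearly all lists were tall ones. Wide peaks at the 7 regions wide in 5 or 6 lists had a median fold of 5.33 and a median −log10 q of 15.6, compared with 4.19 and 7.65 at regions wide in 1 list. At regions wide in 4 to 6 lists the medians were 4.91 and 12.9. Most regions wide in 1 list were so in H4K8la control or H3K9la control. The classes thus differ in the lists that their peaks come from, and no allowance was made for that. All 7 regions wide in 5 or 6 lists were called in all 6 lists. At these 7 regions H3K9la summits were higher with lactate at 7 of 7 (median log2 difference 0.47) and H4K8la summits at 5 of 7 (0.52). For these 2 marks this was the reverse of the wide regions as a whole. H4K16la summits were higher at 3 of 7 (−0.15). The reversal was weaker or absent over the 20 regions wide in 4 to 6 lists, which include these. There H3K9la summits were higher with lactate at 12 of 20 (0.055), H4K8la summits at 9 of 20 (−0.15) and H4K16la summits at 4 of 19 (−0.48). A region wide in 5 or 6 lists is wide in at least 2 lists of each condition, and the 7 were chosen by width. At most of those wide in 5 lists, the list that fell short was a control list. Width and height come from the same call, so the choice by itself favours a taller lactate summit here. These counts are a description.

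Of the 2 regions wide in all 6 lists, the first lay on chromosome 1 from 34120345 to 34123496. The widths were 2496 bp in H3K9la control and 2841 bp with lactate, 2002 and 1834 bp for H4K8la, and 2945 and 2967 bp for H4K16la. It holds the widest peak of both H3K9la lactate and H4K16la control. H4K8la lactate called a further peak of 549 bp there, so its 1834 bp peak is part of a split. For the strongest peak of each list there, summit height ran from 23.1 times background in H3K9la control to 31.9 times in H3K9la lactate. Local background ran from 3.46 to 6.30 times the genome-wide value. In H4K8la lactate the strongest was the 549 bp peak.

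The second lay on chromosome 20 from 3307035 to 3309408. Its widths were 2077 and 1770 bp for H3K9la in control and with lactate, 1894 and 2037 bp for H4K8la, and 2083 and 2064 bp for H4K16la. The 6 widths thus spanned 1770 to 2083 bp. Heights ran from 19.8 times background in H3K9la control to 39.2 times in H4K16la control. H3K9la lactate reached 38.8 times with a fold of 7.79 and a −log10 q of 36.4, against a fold of 5.88 and 16.7 in control.

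Another 5 regions were wide in 5 lists, and the list that fell short differed among them. On chromosome 16 from 20021178 to 20024231, H3K9la control was the narrow one at 1292 bp, H3K9la lactate measured 1798 bp, H4K8la 1645 and 2043 bp in control and with lactate, and H4K16la 1777 and 3054 bp. On chromosome 1 from 53311398 to 53314203 the narrow list was H4K16la control at 1478 bp, and the H4K8la peaks were 2236 and 2399 bp wide. On chromosome 6 from 139251816 to 139253647, H3K9la lactate had 2 peaks of 483 and 494 bp where the other 5 lists had 1 peak of 1628 to 1771 bp. The region on chromosome 9 from 2909306 to 2911082 held 1440 bp in H3K9la control and up to 1769 bp in H3K9la lactate, with −log10 q of 29.6 and 40.4. The last, on chromosome 19 from 21922010 to 21923764, was tallest in H4K8la lactate at 57.5 times background, against 34.2 times in H4K8la control, where its peak was 1474 bp wide. The list that fell short was a control list at 4 of the 5 regions, each time with a single peak.

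**Figure D5:**
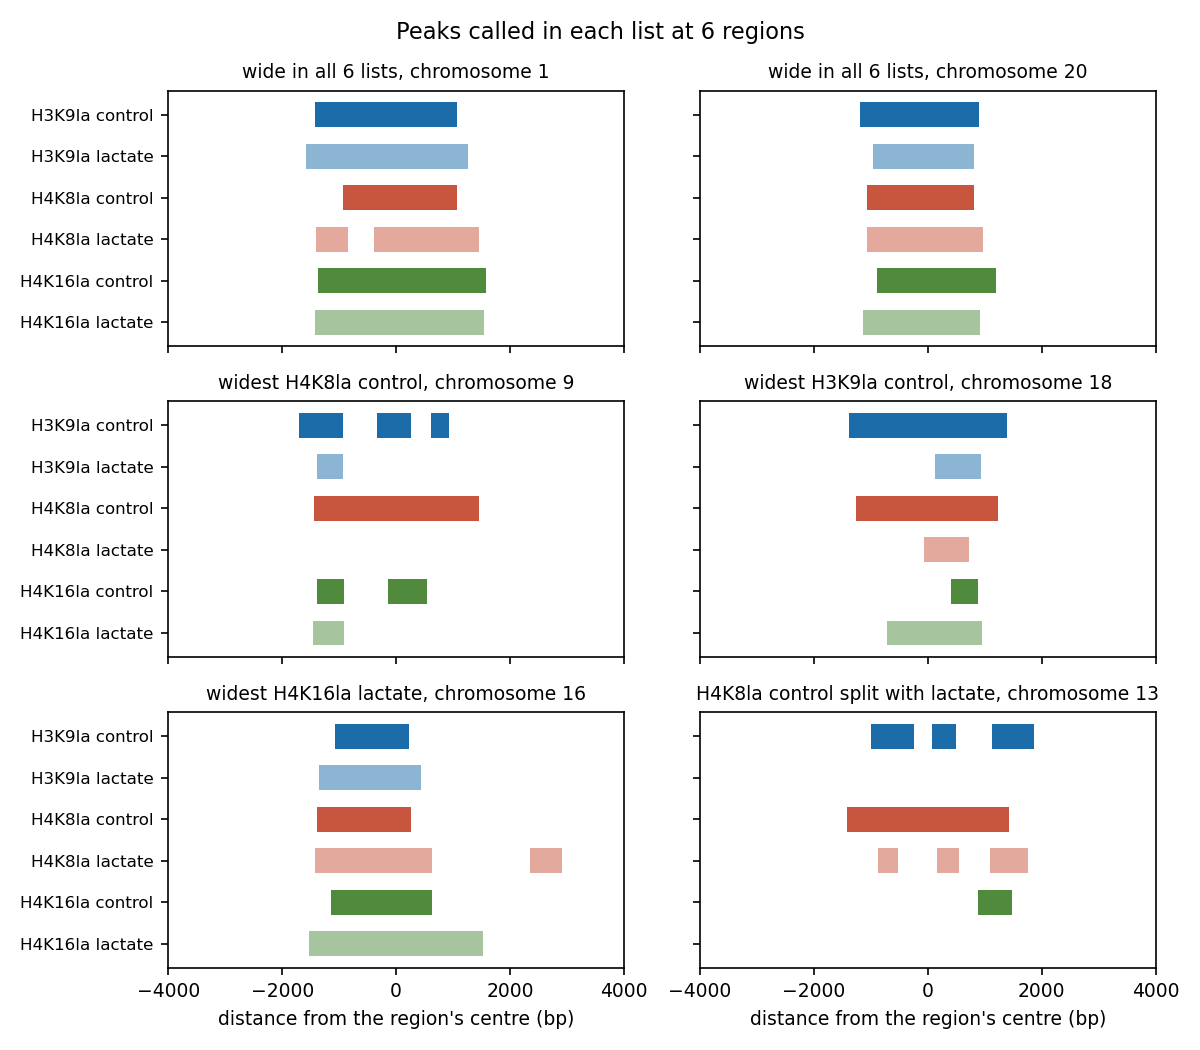
Peaks called in each list at 6 wide regions, as bars along the distance from the region's centre in bp; dark bars are control and pale bars lactate lists, and bars past a region's ends are peaks that reach beyond it or lie next to it. The regions wide in all 6 lists (top row) show nearly aligned bars of 1770 to 2967 bp apart from the split in H4K8la lactate, while the widest H4K8la control peak (middle left, 2893 bp) faces no H4K8la lactate peak and 3 narrow H3K9la control peaks.

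The widest H4K8la control peaks were mostly narrow or missing in the other lists. The first, on chromosome 9 from 60185307 to 60188199, was 2893 bp wide with a fold of 3.71, and H4K8la lactate had no peak there. H3K9la control called 3 narrow peaks of at most 775 bp that overlapped it and H3K9la lactate 1 of 457 bp. H4K16la called 2 narrow peaks in control, the wider of 683 bp, and 1 of 537 bp with lactate. The second, on chromosome 13 from 84979442 to 84982288, was 2847 bp wide, and both H4K8la lactate and H3K9la control broke it into 3 peaks, the widest of 659 and 764 bp. The third was an exception among the 3. On chromosome 15 from 28400255 to 28403028 it was 2774 bp wide, and H4K8la lactate called 2670 bp at the same place, the widest peak of that list, although its summit stood 16.1 times over background against 36.4 times in control.

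H3K9la control was led by a peak of 2767 bp on chromosome 18 from 69119833 to 69122599. H4K8la control was wide there too, at 2493 bp, and so was H4K16la lactate at 1672 bp. The lactate lists of H3K9la and H4K8la each called 798 bp. The local background was 10.1 times the genome-wide value in H3K9la control and the fold 2.65. On chromosome 10 from 61373156 to 61375828 the H3K9la peak measured 2673 bp in control and 1707 bp with lactate, while H4K8la had 1998 bp in control and 2053 bp with lactate. H4K16la stayed at 400 and 745 bp. The third peak, on chromosome 4 from 146013371 to 146015955, measured 2585 bp in control and 1524 bp with lactate, the H4K8la peaks there 1549 and 1594 bp, and H4K16la had none in control and 1356 bp with lactate.

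Some of the widest lactate peaks were narrow in control. For H4K8la, the peak on chromosome 1 from 39725628 to 39728182 was 2555 bp wide with lactate and 1143 bp in control, although the control summit was the taller, at 19.0 against 12.3 times background. For H4K16la, the peak on chromosome 3 from 761526 to 763748 was 2223 bp wide with lactate and broken into 2 peaks of 598 and 312 bp in control. H4K8la showed the same direction there, with 2237 bp with lactate and 608 bp in control. H3K9la lactate had 2 peaks there, the wider of 954 bp, and its control 1 of 512 bp. A further H4K16la lactate peak, on chromosome 4 from 175343829 to 175345959, was 2131 bp wide and met 2 narrow control peaks of 724 and 337 bp, and H4K8la had 1756 bp with lactate and 459 bp in control. The H3K9la lactate peak on chromosome 3 from 2258441 to 2260602, 2162 bp wide with a fold of 7.06, was wide in both conditions for H3K9la and H4K16la but split in 2 by both H4K8la lists.

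Wide peaks with no peak at all in the other condition were fewest on the lactate side of H3K9la and H4K8la. H3K9la lactate had 1, on chromosome 3 from 2152505 to 2154018 (1514 bp, fold 4.53), with narrow peaks in H4K8la lactate and in both H4K16la lists. H4K8la lactate had 3. The first lay on chromosome 4 from 25909105 to 25910800 (1696 bp), the second on chromosome 7 from 376993 to 378653 (1661 bp) and the third on chromosome 1 from 111230754 to 111232373 (1620 bp). The peaks on chromosomes 4 and 1 stood only 6.46 times over background. On the control side the widest for H3K9la was a peak of 2425 bp on chromosome 2 from 59922148 to 59924572, where no lactate list of any mark had a peak. For H4K8la control the widest was the 2893 bp peak on chromosome 9 described above, where all H3K9la and H4K16la lists had narrow peaks. Next came 2757 bp on chromosome 7 from 20145360 to 20148116 and 2715 bp on chromosome 1 from 206686018 to 206688732. A narrow H3K9la control peak was the only other call at either of these. For H4K16la the widest were 2247 bp in control, on chromosome 1 from 58672900 to 58675146, and 2066 bp with lactate, on chromosome 15 from 26796506 to 26798571.

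Some wide peaks were broken up by the other condition. The H3K9la control peak on chromosome 18 from 53955053 to 53957620, 2568 bp wide, met lactate peaks of 1349 and 286 bp, although H4K8la was wide there in both conditions, at 2362 and 1937 bp. The reverse order occurred for H4K8la on chromosome 1 from 205608930 to 205611131, where a lactate peak of 2202 bp met 3 control peaks of 302 to 856 bp. The tallest control peak there stood 34.2 times over background and the lactate peak 17.4 times. For H4K16la, a control peak of 1862 bp on chromosome 20 from 54415058 to 54416919 met lactate peaks of 845 and 790 bp, while H4K8la was wide there in both conditions, at 2158 and 2264 bp.

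Wide regions found in 1 list alone numbered 24. Of these 13 were from H4K8la control, 5 from H3K9la control, 5 from H4K16la lactate, 1 from H4K16la control and none from H3K9la lactate or H4K8la lactate. The widest were modest: 1809 bp in H3K9la control, on chromosome 1 from 119848825 to 119850633 and again on chromosome 7 from 46785943 to 46787751, 1798 bp in H4K16la lactate, on chromosome 6 from 130809923 to 130811720, and 1765 bp in H4K8la control, on chromosome 16 from 18674824 to 18676588. The next H4K8la control peak, on chromosome 1 from 204141035 to 204142783, was 1749 bp wide with a fold of 4.61, a −log10 q of 12.7 and a summit 31.9 times over background.

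Wide regions were spread over all 20 chromosomes. They made up 1.69% of the merged regions on chromosome 20, 1.61% on chromosome 10 and 1.52% on chromosome 19, and 0.669% on chromosome 17 and 0.787% on chromosome 13, the lowest. Neighbouring wide regions lay a median of 412 kb apart (quartiles 126 and 1220 kb), and 39 of 2020 gaps were under 10 kb. The smallest was 1133 bp. Of 2464 windows of 1 Mb with any merged region, 1052 held a wide region, 532 of them 1 and 57 at least 5. The fullest windows were on chromosome 1 from 95 to 96 Mb, with 9 wide regions among 110 merged regions, and on chromosome 19 from 33 to 34 Mb, with 9 among 121. A tie of 3 windows at 8 followed, of which chromosome 4 from 157 to 158 Mb held most wide peaks, 12, with 88 merged regions. In these 3 windows H4K8la control was wide at 8, 7 and 7 of the regions. H3K9la control was wide at 3, 2 and 2, and no H4K16la lactate peak there was wide. Within 10 kb, wide peaks had a higher mean number of neighbouring peaks of the same list than other peaks in each of the 6 lists. The means were 0.879 against 0.821 in H3K9la control, 0.789 against 0.729 in H4K8la control and 0.423 against 0.371 in H4K8la lactate. They were 0.623 against 0.484 in H3K9la lactate, 0.476 against 0.391 in H4K16la control and 0.729 against 0.603 in H4K16la lactate. The medians were equal except in H4K16la lactate, with 1 against 0. The share of peaks with any neighbour was lower at wide peaks in H3K9la control, 55.8% against 56.1%. It was higher in the other lists, by least in H4K8la lactate, 31.6% against 31.1%.

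High coverage around a peak touched many members. A local background of at least 5 times the genome-wide value was found at 497 of the 1344 wide peaks of H4K8la control (37.0%, against 7.71% of its other peaks) and at 159 of 577 in H3K9la control (27.6%, against 7.69%). In the other lists it held for fewer wide peaks but for very few other peaks. The shares were 10.4% against 0.817% in H3K9la lactate, 6.51% against 0.523% in H4K8la lactate, 13.1% against 0.520% in H4K16la control and 7.75% against 0.0919% in H4K16la lactate. Without such peaks H4K8la control had 847 wide peaks and a log2 ratio of −2.08. The extreme was a wide H4K16la control peak on chromosome 3 from 2231828 to 2233735, with a local background 100 times the genome-wide value, a summit at 213 times and a fold of only 2.11. H4K8la control had no peak there, and the other lists had narrow peaks at local backgrounds of 54.9 to 70.3 times. No list of artefact-prone regions was applied, and the part of such stretches in the members was not tested.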

How the data were processed

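CUT&Tag libraries of 3 marks in 2 conditions, 6 in all, were analysed from the peak list deposited for each, called per library. Per the submitters' processing notes the tools include cutadapt, Bowtie2 and MACS2 and the build is rn7. Their versions and settings, and whether an IgG control entered the calling, are not stated in these sources. Deposited by the authors for each peak are positions, a fold (ratio of summit pileup to local background), −log10 p and −log10 q, and a score equal to 10 times −log10 q. The treatment protocol names lactate for all samples, so groups were taken from titles.

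Wide peaks (1500 bp or more, chromosomes 1 to 20) were merged at 1 bp of overlap. Pileup and local background were solved from fold and −log10 p, assuming fold = (pileup + 1)/(background + 1) and a Poisson tail, within 0.002 of −log10 p. This succeeded for all but 1 of 315825 peaks, and the most frequent local background of a list was taken as genome-wide. No label states this formula, which was taken from how the values fit it. The search and the overlap states were tested on 5000 simulated peaks. Intervals are Wilson 95%. With 1 library per group no test was made.

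Regions were named by rule: the 3 widest peaks of each list, regions wide in all 6 lists (up to 10), the 3 widest with no peak in the other condition, the 2 most split by it, the 2 widest in no other list, and 3 windows of 1 Mb. The report gives a selection of these and, added after values were seen, the regions wide in 5 lists. Members and lists were chosen with earlier results of these data known. Alternatives were other width thresholds (1000 and 2000 bp), −log10 q of at least 10, high local background left out, X and Y included, joining, overlap and equal numbers. Python 3.11.15, numpy 2.4.6, pandas 2.3.3, scipy 1.17.1 and matplotlib 3.10.9 were used.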

Additional observations from a re-analysis of the deposited data

Results flagged for a closer look

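The number of wide peaks moved in opposite directions with lactate in different marks. The log2 ratio of lactate over control was −2.91 for H3K9la (77 against 577) and −2.64 for H4K8la (215 against 1344), but 0.62 for H4K16la (129 against 84). The log2 ratios of all peaks were −0.41, −0.53 and 0.62. The H4K16la list as a whole was thus longer by the same factor, and its share of wide peaks was 0.212% in control and 0.211% with lactate. The difference between the marks was not tested, as every ratio rests on 1 library per condition. The background coverage of the lactate library was 0.868, 1.18 and 1.86 times that of control, and its part in the ratios was not tested.

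Chromosomes X and Y lie outside the rule for wide peaks. On X, H4K16la lactate had 8 peaks of 1500 bp or more, above the 2 of H4K16la control. The other lists had 5 and 1 (H3K9la control and lactate) and 13 and 1 (H4K8la control and lactate), and Y had none in the 6 lists.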

How the results depend on the processing

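Numbers below follow the order H3K9la control and lactate, H4K8la control and lactate, H4K16la control and lactate. At 1000 bp or more the lists held 4699, 1507, 6710, 2227, 1509 and 2081 wide peaks, and at 2000 bp or more 51, 3, 196, 17, 5 and 12. At −log10 q of at least 10 they held 139, 14, 494, 36, 27 and 35. Joining peaks of a list within 500 bp, an alternative chosen after seeing the data, gave 906 and 162 for H3K9la and 139 and 253 for H4K16la, and leaving out peaks of high local background gave 847 for H4K8la control. The log2 ratio stayed below 0 for H3K9la and H4K8la in every alternative run. For H3K9la it was −1.64 at 1000 bp, −4.09 at 2000 bp, −3.31 at −log10 q of at least 10, −2.48 with joining within 500 bp and −2.49 as a ratio of shares. For H4K8la it was −1.59, −3.53 and −3.78 in the first 3 of these, −2.08 without high local background and −2.11 as shares. For H4K16la it was 1.26 at 2000 bp, from 12 and 5 peaks, and turned to −0.0028 as shares, because the whole lactate list is longer by the same factor. Joining within 200 bp changed nothing, since no list has a gap that small.

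Merged wide regions numbered 12173 at 1000 bp and 259 at 2000 bp, and 396 from the 77 widest peaks of each list. Wide in 1 list were 8187, 240 and 354 of these, and wide in all 6 were 69, 0 and 0, and 0 also without high local background. At 2000 bp the other condition's calls for wide, several narrow, 1 narrow and no peak were 1.96%, 21.6%, 62.7% and 13.7% in H3K9la control. They were 23.5%, 35.3%, 41.2% and 0% in H4K8la lactate, and 16.7%, 25%, 50% and 8.33% in H4K16la lactate. Shares that moved in the other lists were 2.04% wide and 12.8% several narrow in H4K8la control, 40% wide, 0% several narrow and 40% with 1 narrow in H4K16la control, and 0% for several narrow and for no peak in H3K9la lactate, the last 2 from 5 and 3 peaks. Requiring 50% of the shorter peak to be shared, several narrow fell to 6.10% in H4K8la control. In all, 70 of 135 alternative values stayed within the limits set for no change. No paired analysis was possible because each group has 1 library.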
